A study of Mus musculus with 15 samples.

Results

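The genotype by passage interaction was examined in mouse primary lung fibroblasts, as the passage effect in Atm-/- cells (passage 8 against passage 2) minus the passage effect in Atm+/+ cells, on the log2 scale. It used the 12 unirradiated libraries of the 15 in the series, in 4 groups of 3: Atm-/- at passage 8, Atm-/- at passage 2, Atm+/+ at passage 8 and Atm+/+ at passage 2. A library belonged to the comparison by its labelled genotype, passage and lack of treatment, so no measured value chose the members. All 12 came from C57BL/6 mice and from cultures kept at 3% O2, and the remaining group of the series, Atm+/+ cells given X-rays, was outside the comparison. Each genotype was represented by 3 fibroblast strains, sampled at both passages per the series design, and no label ties a library at passage 8 to its strain at passage 2. The age of the mice, and the part of Atm that the knockout allele removes, are not stated in the labels. A negative difference means that the level at passage 8 relative to passage 2 was lower in Atm-/- cells than in Atm+/+ cells, and a positive one that it was higher.

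Atm encodes the kinase that senses DNA double-strand breaks and signals to p53 and the cell cycle checkpoints, and its loss causes ataxia-telangiectasia. Primary fibroblasts put on plastic lose the immune, endothelial and epithelial cells that came along from the tissue, and with passage they can take on features of myofibroblasts, cells with a contractile cytoskeleton that lay down collagen. Contractile and matrix genes are controlled in fibroblasts by TGF-beta signalling, by serum response factor (SRF) with its cofactors of the MRTF family, and by YAP and TAZ, which act through the DNA-binding TEAD factors. Passage also brings cultures towards senescence, a lasting arrest with a secretory programme and raised CDK inhibitors.

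The question was whether loss of Atm altered what serial culture changes. Of 20 smooth muscle contractile genes tested, 0 rose with passage in Atm-/- cells and 14 in Atm+/+ cells, and 9 had a lower difference. This list and the others were written with earlier results of these data known. Smaller shares of the integrin, collagen and matrix glycoprotein genes were lower too, and collagen I genes fell in Atm-/- cells. Myh11 had the lowest p and a difference of -4.02 on the log2 scale, Lmod1 -2.67, Thbs1 -3.07 and Col1a1 -2.29. On the other side stood genes that Atm-/- cells held or lost less of with passage than Atm+/+ cells did, among them Adh1 at 3.34, Fam174b at 4.06 and Ramp2 at 3.10. Of 17828 genes tested, 120 (0.673%) passed an edgeR quasi-likelihood test of the difference at an adjusted p under 0.05, 74 of them lower (0.415%) and 46 higher (0.258%). The passage effect itself passed for 1705 genes (9.56%) in Atm-/- cells, of which 607 rose (3.4%) and 1098 fell (6.16%). It passed for 2845 genes (16%) in Atm+/+ cells, of which 1242 rose (6.97%) and 1603 fell (8.99%).

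This count lay close to the threshold and rested on single libraries. Of the 120 genes, 71 had an adjusted p above 0.04, and leaving out 1 library gave from 1 gene (without Atm-/- passage 2 replicate 1) to 2357 genes (without Atm+/+ passage 2 replicate 2). It was 11 or fewer when any 1 of the Atm-/- passage 2 libraries, any 1 of the Atm+/+ passage 8 libraries or Atm+/+ passage 2 replicate 1 was dropped. Leaving out replicates 1, 2 and 3 of Atm-/- at passage 8 gave 41, 729 and 239 genes, and leaving out replicate 3 of Atm+/+ at passage 2 gave 52. With the replicate number, read as the strain, entered as a block, 0 genes (0%) passed in edgeR and 2880 had an unadjusted p under 0.05. DESeq2 with the same block called 767. The 120 genes kept their direction with the block, each with an unadjusted p under 0.05 and an edgeR adjusted p between 0.197 and 0.280. They were chosen in these same 12 libraries, so the kept direction and unadjusted p add no support. DESeq2 without a block called 2127 genes, 1355 higher (7.6%) and 772 lower (4.33%). In edgeR 2566 genes (14.4%) were higher and 1708 (9.58%) lower at an unadjusted p under 0.05. The limma fit on log2(TPM + 1) called 79 genes, 16 higher and 63 lower. The 49 genes of the naming rule other than Atm kept their sign in all 1127 values from the alternatives tried. They were chosen for passing in these same libraries, so a kept sign is no separate support. In edgeR 0 of the 49 still passed with the block, and 1 without Atm-/- passage 2 replicate 1. The size of some moved with the libraries used, as given beside them.

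Library totals were 13645592 to 37149602 counts, and a pair of libraries stood apart. Thinned to the smallest total, 15037 genes were detected in replicate 3 of Atm-/- at passage 8 and 17226 in replicate 3 of Atm+/+ at passage 2. The other 10 libraries each detected 20101 or more. Both enter the difference with the same sign. Without them 1315 of 18183 genes passed (7.23%), 608 higher (3.34%) and 707 lower (3.89%), and the median difference over all genes was -0.03, against -0.14 in 12 libraries. All 120 genes of the 12-library fit were among the 1315, of which they were 9.13%, with the same sign, as the plot of both differences shows. The 10 libraries are part of the 12, so this is a check of those 2 libraries and not a second measurement.

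**Figure D1:**
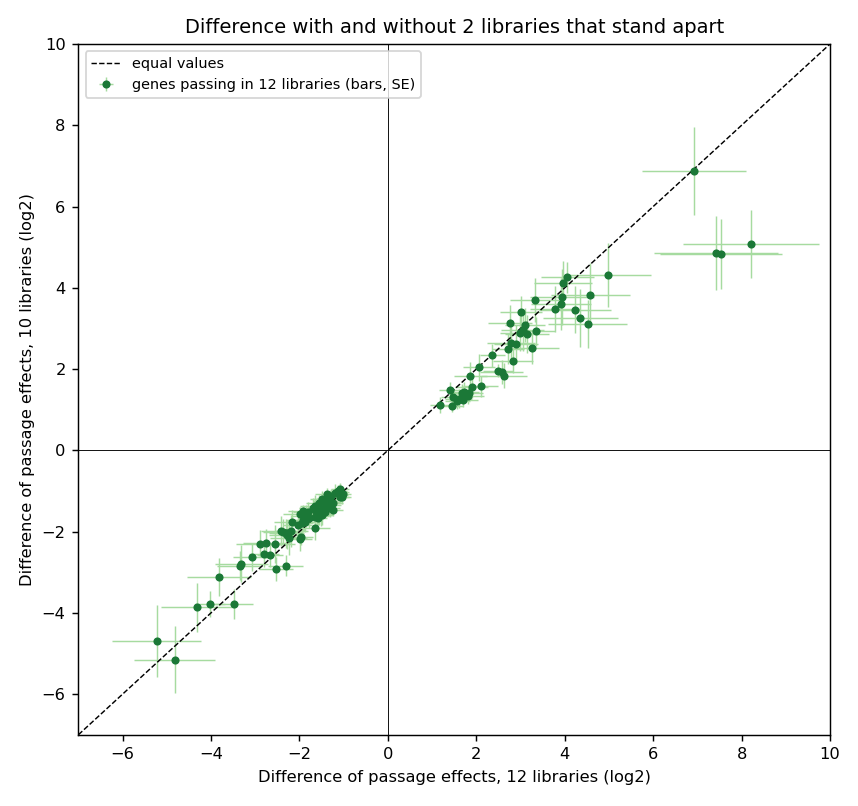
Difference of passage effects (log2) of the 120 genes passing in 12 libraries, from the fit of 12 libraries (horizontal axis) and of the 10 libraries without Atm-/- passage 8 replicate 3 and Atm+/+ passage 2 replicate 3 (vertical axis), with SE bars. The points lie near the line of equal values, except 3 with a difference above 7 in 12 libraries, which lie below it at about 5.

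Atm had reads in every library. Levels are given as CPM, counts scaled to a common normalised library size, and are not corrected for gene length. Its level was 0.869, 1.09 and 2.37 CPM in Atm-/- cells at passage 8 and 1.57, 0.948 and 1.87 CPM at passage 2. Atm+/+ cells had 1.52, 1.42 and 1.995 CPM at passage 8 and 1.09, 0.855 and 3.02 CPM at passage 2. These counts cover the whole gene (chr9:53439149-53536740, minus strand, GENCODE vM21 on GRCm38/mm10), and without the limits of the deletion they do not check the genotype labels. The groups overlapped, and the difference was -0.06 (SE 0.83, edgeR adjusted p = 0.972) in 12 libraries and -1.35 (SE 0.50, edgeR adjusted p = 0.111) in 10, with a sign that turned in several alternatives. The fibroblast identity of the cultures showed in Col1a1 and Col1a2, which lay between 1748 and 11330 CPM in all 12 libraries. Macrophage and endothelial markers were also present, mostly at passage 2, and their values stand beside the genes they touch.

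The 120 genes fell into classes by what each genotype did. Of the 74 lower genes, 44 did not pass in Atm-/- cells and rose with passage in Atm+/+ cells, 13 rose in both genotypes, 9 fell in Atm-/- cells and did not pass in Atm+/+ cells, 6 fell in Atm-/- cells and rose in Atm+/+ cells, and 2 fell in both. Of the 46 higher genes, 24 did not pass in Atm-/- cells and fell in Atm+/+ cells, 9 rose in Atm-/- cells and did not pass in Atm+/+ cells, 7 fell in both, and 6 rose in Atm-/- cells and fell in Atm+/+ cells. A passage effect that did not pass in one genotype is not shown to be absent there. The genotypes also changed places between the passages. Of the 74 lower genes, 65 (87.8%) had a lower mean CPM in Atm-/- than in Atm+/+ cells at passage 8 and a higher one at passage 2, against 35.8% of all genes tested. Of the 46 higher genes, 41 (89.1%) had a higher mean in Atm-/- cells at passage 8 and a lower one at passage 2, against 27% of all genes. The test of the difference favours such crossing, so these shares describe the genes and support nothing further.

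**Figure D2:**
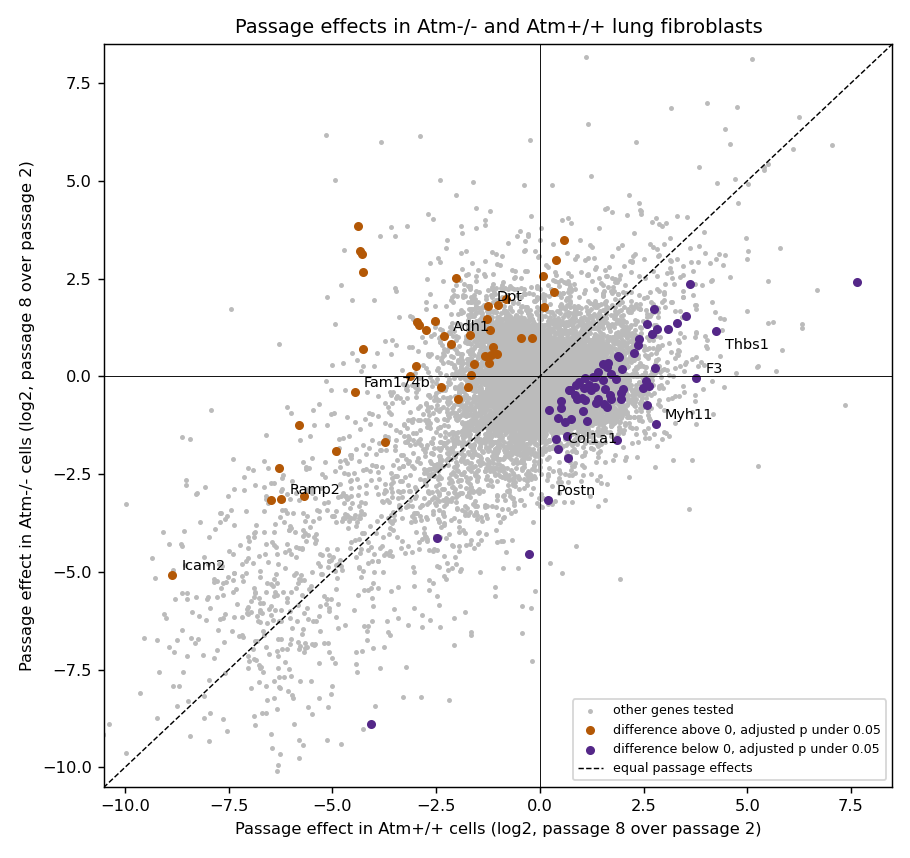
Passage effect (log2, passage 8 over passage 2) in Atm-/- cells (vertical axis) and Atm+/+ cells (horizontal axis) for 17828 genes, with the 46 genes of a higher and the 74 of a lower difference coloured and the dashed line marking equal effects. Most coloured genes on the right of the vertical axis lie near 0 in Atm-/- cells and rose in Atm+/+ cells, while Icam2 and Ramp2 lie far below 0 on both axes.

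Smooth muscle contractile genes gave the largest share of calls among 26 gene lists without the marker lists. The lists were written with earlier results of these data known, so this rank adds no support. Of 20 contractile genes tested, 9 were lower, 0 higher and 18 below 0, with a median difference of -1.31, against -0.14 over all genes tested. The 9 were Myh11, Lmod1, Actg2, Mylk, Cnn1, Tagln, Acta2, Tpm1 and Csrp1. With 1 library left out, from 1 to 11 of the 20 passed. In Atm-/- cells 0 of the 20 rose with passage and 4 fell, and in Atm+/+ cells 14 rose and 1 fell. Over all genes tested 3.4% rose and 6.16% fell in Atm-/- cells, and 6.97% rose and 8.99% fell in Atm+/+ cells. At that share, 0 of 20 rising in Atm-/- cells says little. In the 10 libraries 15 of the 20 had a lower difference, with a median of -1.54. Pericyte markers, none of them in the contractile list, had a median of -1.15 with 10 of 14 below 0. Their summed level was 569.5 to 696.2 CPM in Atm-/- cells at passage 8 and 918.6 to 1080 CPM at passage 2, against 795 to 948.1 CPM in Atm+/+ cells at passage 8 and 793.5 to 1158 CPM at passage 2. The part of pericyte RNA in the contractile differences was not tested.

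Myh11, the heavy chain of smooth muscle myosin (chr16:14194535-14291372, minus strand, GENCODE vM21 on GRCm38/mm10), was at 111, 198 and 133 CPM in Atm-/- cells at passage 8 and 366.5, 315 and 356 CPM at passage 2. The values in Atm+/+ cells were 639.6, 525.5 and 681 CPM at passage 8 and 91.98, 108 and 66.3 CPM at passage 2. The 4 groups did not overlap, and the order was Atm+/+ passage 8, Atm-/- passage 2, Atm-/- passage 8 and then Atm+/+ passage 2, from high to low, with the last pair nearly touching. The passage effect was -1.23 (SE 0.24) in Atm-/- cells and 2.79 (SE 0.25) in Atm+/+ cells, and their difference was -4.02 (SE 0.34, edgeR adjusted p = 0.00204), or -4.08 (SE 0.41, edgeR adjusted p = 0.197) with the replicate block. It passed without any 1 of the 12 libraries, with values from -4.30 to -3.85.

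Lmod1, leiomodin, which nucleates actin filaments in smooth muscle, was at 69.2, 121 and 97.1 CPM in Atm-/- cells at passage 8 and 108, 96.1 and 108 CPM at passage 2. The Atm+/+ libraries held 254, 207 and 257 CPM at passage 8 and 49.4, 39.1 and 34.1 CPM at passage 2. Its Atm-/- libraries at both passages overlapped and lay between the Atm+/+ groups. The difference was -2.67 (SE 0.30, edgeR adjusted p = 0.0164). Tagln, the actin-binding protein transgelin, was at 2648, 2826 and 2151 CPM in Atm-/- cells at passage 8 and 3346, 2743 and 3172 CPM at passage 2. For Atm+/+ cells they were 5172, 4668 and 4510 CPM at passage 8 and 2158, 1609 and 1964 CPM at passage 2. Its difference was -1.60 (SE 0.25, edgeR adjusted p = 0.0276). Again every Atm-/- library lay below the Atm+/+ libraries at passage 8, and 5 of the 6 were above the highest Atm+/+ library at passage 2. Mylk, the kinase that phosphorylates myosin light chain, had a difference of -2.41 (SE 0.45, edgeR adjusted p = 0.0476). Cnn1, calponin, an actin-binding inhibitor of myosin, had -2.31 (SE 0.40, edgeR adjusted p = 0.0399).

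The smooth muscle actins moved alike. Acta2, the actin used as a myofibroblast marker, was at 4234, 4994 and 4928 CPM in Atm-/- cells at passage 8 and 6120, 4906 and 6212 CPM at passage 2. Levels in Atm+/+ cells were 7914, 7775 and 7647 CPM at passage 8 and 3641, 2765 and 3674 CPM at passage 2. Its difference was -1.50 (SE 0.24, edgeR adjusted p = 0.0339). Actg2, the enteric smooth muscle actin, was at 281, 399 and 644 CPM in Atm-/- cells at passage 8 and 671, 540.5 and 763 CPM at passage 2. Atm+/+ libraries were at 928, 868 and 829 CPM at passage 8 and 269.7, 181 and 229 CPM at passage 2. Its difference was -2.53 (SE 0.39, edgeR adjusted p = 0.0276). All 3 Atm+/+ libraries at passage 8 were above every other library in both genes. Coding sequences of the actins are close to each other, and how reads that match several genes were counted is not stated, so the split between them is uncertain.

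**Figure D3:**
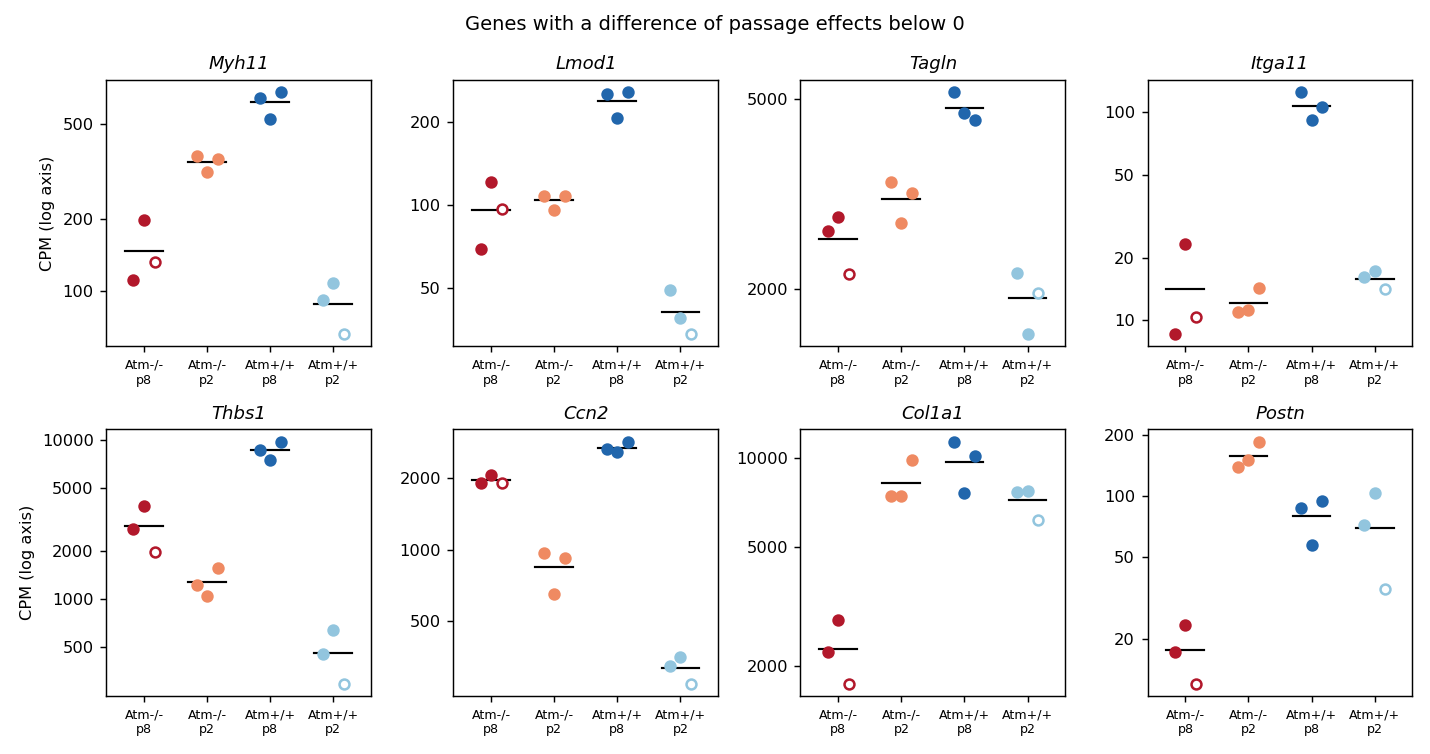
CPM on log axes in the 12 libraries for 8 genes with a difference of passage effects below 0, with Atm-/- groups left of Atm+/+ groups and passage 8 left of passage 2, points for libraries, lines for means of 3 and open points for the pair of libraries that stand apart. In Myh11, Lmod1, Tagln, Itga11, Thbs1 and Ccn2 the Atm+/+ passage 8 libraries are the highest, and in Col1a1 and Postn the Atm-/- passage 8 libraries are the lowest.

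Promoters of contractile and mechanosensitive genes are shown because TEAD factors bind the letters GGAATG, here in capitals. Each is the 250 bases before the start site in RefSeq (GRCm38.p6), read 5′ to 3′ on the strand of the gene. Acta2 lies on the minus strand at chr19:34255374-34255623, Ankrd1 on the minus strand at chr19:36119845-36120094 and Lmod1 on the plus strand at chr1:135324563-135324812. The 3 were chosen after their letters were seen.
Acta2: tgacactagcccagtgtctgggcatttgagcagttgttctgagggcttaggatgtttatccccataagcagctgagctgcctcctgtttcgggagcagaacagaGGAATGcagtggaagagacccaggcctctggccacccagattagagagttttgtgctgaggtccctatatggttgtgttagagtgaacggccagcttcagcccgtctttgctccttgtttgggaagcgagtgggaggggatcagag
Ankrd1: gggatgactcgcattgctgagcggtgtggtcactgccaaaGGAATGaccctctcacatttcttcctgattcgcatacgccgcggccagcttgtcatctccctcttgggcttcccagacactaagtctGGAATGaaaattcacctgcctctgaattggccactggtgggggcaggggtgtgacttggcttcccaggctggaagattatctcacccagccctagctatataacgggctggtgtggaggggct
Lmod1: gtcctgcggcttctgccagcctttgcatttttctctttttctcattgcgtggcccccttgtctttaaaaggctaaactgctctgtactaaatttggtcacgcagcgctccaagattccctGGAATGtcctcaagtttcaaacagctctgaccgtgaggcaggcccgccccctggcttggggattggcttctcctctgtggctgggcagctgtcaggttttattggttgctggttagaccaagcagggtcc
The match begins 146 bases before the start in Acta2 and 130 in Lmod1, and Ankrd1 holds 2, at 210 and 123 bases before it. Of the 74 lower genes 52 had a RefSeq promoter, from 250 bases before to 50 after the start, and 15 of these (28.8%) held GGAATG on either strand. It was held by 4 of the 35 promoters of higher genes (11.4%) and by 1693 of the 11514 promoters of all genes tested (14.7%). A CArG box, the SRF motif (CC, then 6 of A or T, then GG), stood in 1 of the 52, that of Fermt2, in 1 of the 35 and in 1.6% of all promoters. The core of the interferon-stimulated response element on either strand (GAAA, any 2 bases, GAAA) stood in 5 of the 52 (9.62%), in 0 of the 35 and in 3.85% of all promoters. These are counts of exact matches in a short window, without a test, and say nothing of binding. A stretch that departs from the CArG pattern by 1 base, such as ccctatatgg in the Acta2 letters, was not counted.

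Targets of the 2 cytoskeletal pathways were lower where they passed. Of 19 tested genes in the list of SRF and MRTF cofactors and targets, 4 were lower and 0 higher (median -0.55), and of 24 YAP and TAZ targets, 3 were lower and 0 higher (median -0.88), with Ankrd1 in both lists. Ankrd1, a titin-binding ankyrin repeat protein, was at 289.8, 323 and 383 CPM in Atm-/- cells at passage 8 and 137, 98.2 and 108 CPM at passage 2. In Atm+/+ cells the values were 497, 424 and 676 CPM at passage 8 and 42.3, 45.01 and 50.8 CPM at passage 2. It rose in both genotypes, by 1.54 (SE 0.21) in Atm-/- cells and 3.53 (SE 0.22) in Atm+/+ cells, and the difference was -2.0 (SE 0.29, edgeR adjusted p = 0.0201). The Atm-/- libraries lay below the Atm+/+ libraries at passage 8 and above them at passage 2, without overlap at either passage.

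Ccn2, connective tissue growth factor, was at 1908, 2065 and 1915 CPM in Atm-/- cells at passage 8 and 968, 646 and 920.1 CPM at passage 2. Atm+/+ cells had 2649, 2587 and 2862 CPM at passage 8 and 323, 353 and 271 CPM at passage 2. Its difference was -1.88 (SE 0.25, edgeR adjusted p = 0.0177). It showed the same order as Ankrd1, without overlap between any of the 4 groups. Nexn, which binds actin at the Z disc, had -1.66 (SE 0.22, edgeR adjusted p = 0.0177), and Akap12, a scaffold for protein kinase A, -1.90 (SE 0.31, edgeR adjusted p = 0.036). F3, tissue factor, which starts blood clotting, was at 243, 607 and 194 CPM in Atm-/- cells at passage 8 and 373, 331 and 374 CPM at passage 2. The values in Atm+/+ cells were 1646, 1354 and 1812 CPM at passage 8 and 129.8, 182 and 39.1 CPM at passage 2. Atm-/- libraries at both passages overlapped, and the difference was -3.82 (SE 0.73, edgeR adjusted p = 0.048). It was -3.12 (SE 0.47, edgeR adjusted p = 0.0086) in the 10 libraries and -4.49 without Atm-/- passage 8 replicate 2.

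Adhesion receptors that join the cytoskeleton to the matrix were lower in 3 of 16 integrin subunits tested, with 0 higher and a median of -0.81. The largest value of the list went the other way, that of Itga6, the laminin-binding alpha 6 subunit, at 4.16 (SE 0.89, edgeR adjusted p = 0.065) in 12 libraries, which did not pass, and 3.90 (SE 0.72, edgeR adjusted p = 0.0179) in 10, which did. Itga11, the collagen-binding subunit of stromal cells, was at 8.598, 23.2 and 10.4 CPM in Atm-/- cells at passage 8 and 10.9, 11.2 and 14.3 CPM at passage 2. The Atm+/+ libraries held 125, 91.2 and 106 CPM at passage 8 and 16.1, 17.1 and 14.1 CPM at passage 2. Only the Atm+/+ libraries at passage 8 stood out, all above 90 CPM, while the other 9 were below 25 CPM, and the difference was -2.54 (SE 0.45, edgeR adjusted p = 0.0424). Itga5, the fibronectin receptor subunit, was at 406, 470.5 and 409 CPM in Atm-/- cells at passage 8 and 569, 497 and 561 CPM at passage 2. For Atm+/+ cells they were 977, 832 and 905 CPM at passage 8 and 359, 355 and 438 CPM at passage 2. Its difference was -1.58 (SE 0.21, edgeR adjusted p = 0.0177). Itga5 is also counted as lower in the SRF and MRTF list. Itga8, a subunit of lung mesenchyme and smooth muscle, had -2.38 (SE 0.44, edgeR adjusted p = 0.0476).

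Collagen genes were lower in 5 of 20, higher in 0 and below 0 in 16, with a median of -1.25. In contrast to the contractile genes, 13 of the 20 fell with passage in Atm-/- cells and 1 rose, while in Atm+/+ cells 4 fell and 6 rose. The shares over all genes tested were 6.16% falling and 3.4% rising in Atm-/- cells, and 8.99% and 6.97% in Atm+/+ cells. Col1a1, which encodes the alpha 1 chain of collagen I (chr11:94936224-94953042, plus strand, GENCODE vM21 on GRCm38/mm10), was at 2235, 2847 and 1748 CPM in Atm-/- cells at passage 8 and 7458, 7452 and 9811 CPM at passage 2. Levels in Atm+/+ cells were 11330, 7635 and 10150 CPM at passage 8 and 7646, 7747 and 6174 CPM at passage 2. The 3 Atm-/- libraries at passage 8 were all below the other 9 libraries, which overlapped. It fell by 1.86 (SE 0.23) in Atm-/- cells, the passage effect in Atm+/+ cells was 0.43 (SE 0.23) and did not pass, and the difference was -2.29 (SE 0.33, edgeR adjusted p = 0.0201).

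Col1a2, its alpha 2 partner, was at 2392, 3090 and 2294 CPM in Atm-/- cells at passage 8 and 5304, 5441 and 6736 CPM at passage 2. Atm+/+ libraries were at 10880, 8684 and 10090 CPM at passage 8 and 6945, 6382 and 6031 CPM at passage 2. Its difference was -1.78 (SE 0.26, edgeR adjusted p = 0.0201). The Atm-/- libraries at passage 8 were again the lowest, and here Atm+/+ libraries at passage 8 were the highest. Basement membrane collagen Col4a1 had -1.85 (SE 0.32, edgeR adjusted p = 0.0419), its partner Col4a2 -1.32 (SE 0.25, edgeR adjusted p = 0.048) and Col5a2, which helps set fibril width, -1.48 (SE 0.28, edgeR adjusted p = 0.0476). Enzymes that process collagen were lower in 3 of 19 and higher in 0 (median -0.46). They were P4ha2, a prolyl hydroxylase, at -1.13 (SE 0.20, edgeR adjusted p = 0.0427), Bmp1, which trims procollagen, at -1.08 (SE 0.20, edgeR adjusted p = 0.0476), and Loxl2, a crosslinking oxidase, at -1.04 (SE 0.20, edgeR adjusted p = 0.0488). Col3a1 was at 579, 2392 and 1084 CPM in Atm-/- cells at passage 8 and 6380, 8417 and 8499 CPM at passage 2. In Atm+/+ cells the values were 8619, 8244 and 9628 CPM at passage 8 and 11290, 14580 and 6244 CPM at passage 2. Its difference was -2.24 (SE 0.62, edgeR adjusted p = 0.111), which did not pass.

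Matricellular and matrix glycoprotein genes were lower in 5 of 30 and higher in 1, with a median of -0.98. Thbs1, thrombospondin 1, an activator of latent TGF-beta (chr2:118111876-118127133, plus strand, GENCODE vM21 on GRCm38/mm10), was at 2774, 3832 and 1991 CPM in Atm-/- cells at passage 8 and 1235, 1052 and 1560 CPM at passage 2. Atm+/+ cells had 8674, 7493 and 9810 CPM at passage 8 and 449, 637 and 294 CPM at passage 2. It rose in both genotypes, by 1.16 (SE 0.31) in Atm-/- cells and 4.23 (SE 0.35) in Atm+/+ cells, without overlap between any of the 4 groups. The difference was -3.07 (SE 0.44, edgeR adjusted p = 0.0201), or -3.17 (SE 0.54, edgeR adjusted p = 0.218) with the replicate block. Postn, periostin, a matrix protein of remodelling tissue, was at 17.2, 23.3 and 12.03 CPM in Atm-/- cells at passage 8 and 139, 149.6 and 185 CPM at passage 2. The values in Atm+/+ cells were 87.8, 57.4 and 94.5 CPM at passage 8 and 71.8, 103 and 35.04 CPM at passage 2. The Atm-/- libraries at passage 8 were below all others, the Atm-/- libraries at passage 2 above all others, and the Atm+/+ passages overlapped. Its difference was -3.36 (SE 0.52, edgeR adjusted p = 0.0276). Tnc, tenascin C, and Vcan, versican, had -2.25 (SE 0.42, edgeR adjusted p = 0.0476) and -1.99 (SE 0.39, edgeR adjusted p = 0.0488). The remaining lower member was Ccn2, given above and also counted among the YAP and TAZ targets.

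Dpt, dermatopontin, a small matrix protein that binds collagen fibrils, was the member that passed in the other direction. It was at 21.2, 21.3 and 18.9 CPM in Atm-/- cells at passage 8 and 7.48, 5.74 and 4.498 CPM at passage 2. The Atm+/+ libraries held 13.3, 20.2 and 6.75 CPM at passage 8 and 34.2, 23.9 and 37.6 CPM at passage 2. Atm-/- libraries at passage 8 were above those at passage 2 and Atm+/+ libraries at passage 8 were below those at passage 2, in both cases without overlap, and the difference was 3.05 (SE 0.50, edgeR adjusted p = 0.0339). Of the 30 members 24 were below 0, and among the others Efemp1, a fibulin of elastic tissue, had 3.17 (SE 0.71, edgeR adjusted p = 0.0751) in 12 libraries, which did not pass, and 1.74 (SE 0.25, edgeR adjusted p = 0.007) in 10, which did. Eln, elastin, had 1.39 (SE 0.56, edgeR adjusted p = 0.167) and did not pass.

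TGF-beta ligands, receptors and targets were lower in 3 of 24 and higher in 0 (median -0.71). Tgfb3, a ligand, had -1.48 (SE 0.25, edgeR adjusted p = 0.0399), and Lrrc32, the GARP protein that holds latent TGF-beta on the cell surface, -1.33 (SE 0.26, edgeR adjusted p = 0.0488). Tgfb1, the ligand most studied in fibrosis, averaged 44.1 ± 3.18 CPM in Atm-/- cells at passage 8 and 75.8 ± 11.3 CPM at passage 2, against 49.95 ± 6.87 CPM in Atm+/+ cells at passage 8 and 77.7 ± 2.56 CPM at passage 2 (SD, n = 3 each), and its difference of -0.14 (SE 0.21, edgeR adjusted p = 0.687) did not pass.

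Secreted factors of the senescence-associated list were lower in 6 of 55 and higher in 1, with a median of -0.79. Cxcl12, a chemokine of stromal cells, was at 450.2, 832 and 411 CPM in Atm-/- cells at passage 8 and 693.5, 839 and 841 CPM at passage 2. For Atm+/+ cells they were 2060, 1908 and 1984 CPM at passage 8 and 735, 707 and 404 CPM at passage 2. The 3 Atm+/+ libraries at passage 8 were the only ones above 850 CPM. Its difference was -2.18 (SE 0.41, edgeR adjusted p = 0.0476). Il11, a fibroblast cytokine, was at 22.6, 15.1 and 15.2 CPM in Atm-/- cells at passage 8 and 57.95, 41.6 and 54.7 CPM at passage 2. Levels in Atm+/+ cells were 37.5, 49.3 and 48.7 CPM at passage 8 and 21.5, 40.9 and 24.3 CPM at passage 2. Atm-/- libraries were lower at passage 8 without overlap, Atm+/+ passages overlapped, and the difference was -2.18 (SE 0.38, edgeR adjusted p = 0.0399). Mmp10, a matrix metalloproteinase, had -2.89 (SE 0.55, edgeR adjusted p = 0.0476), and -2.30 (SE 0.33, edgeR adjusted p = 0.00776) in the 10 libraries. The higher member, Ccl8, a chemokine for monocytes, is given with the higher genes.

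Hypoxia and glycolysis genes were lower in 3 of 31 and higher in 0 (median -0.37), in cultures all kept at 3% O2. Vegfa, the angiogenic factor induced by hypoxia, was at 173, 321 and 229 CPM in Atm-/- cells at passage 8 and 327, 386 and 371 CPM at passage 2. Atm+/+ libraries were at 643, 558 and 755 CPM at passage 8 and 189, 274.5 and 131 CPM at passage 2. Every Atm+/+ library at passage 8 was above every other library, and the difference was -2.30 (SE 0.40, edgeR adjusted p = 0.0399). Vegfa is also counted as lower in the senescence-associated list. Hif1a, the oxygen-regulated transcription factor, had -1.61 (SE 0.29, edgeR adjusted p = 0.0429), and Slc2a1, the glucose transporter GLUT1, -1.65 (SE 0.31, edgeR adjusted p = 0.0476). In the list 3 genes rose with passage in Atm-/- cells and 1 fell, and 18 rose and 0 fell in Atm+/+ cells. The shares over all genes tested were 3.4% rising and 6.16% falling in Atm-/- cells, and 6.97% and 8.99% in Atm+/+ cells.

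Among the largest negative differences outside these lists were Errfi1, a feedback inhibitor of the EGF receptor, Pawr, a pro-apoptotic regulator, and Pgap1, which remodels GPI anchors. Errfi1 had -2.80 (SE 0.34, edgeR adjusted p = 0.017), Pawr -3.31 (SE 0.60, edgeR adjusted p = 0.0465) and Pgap1 -2.75 (SE 0.54, edgeR adjusted p = 0.0488). Without Atm-/- passage 8 replicate 2 the difference of Pgap1 was -3.39. Wfdc21, a small secreted WAP-domain protein, was at 0, 0.0319 and 0 CPM in Atm-/- cells at passage 8 and 7.102, 8.08 and 8.62 CPM at passage 2. In Atm+/+ cells the values were 2.17, 3.01 and 1.78 CPM at passage 8 and 33.9, 21.3 and 61.02 CPM at passage 2. Its Atm-/- libraries at passage 8 were at or next to 0, so its fitted value of -4.82 depends on the prior count and gives no size.

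**Figure D4:**
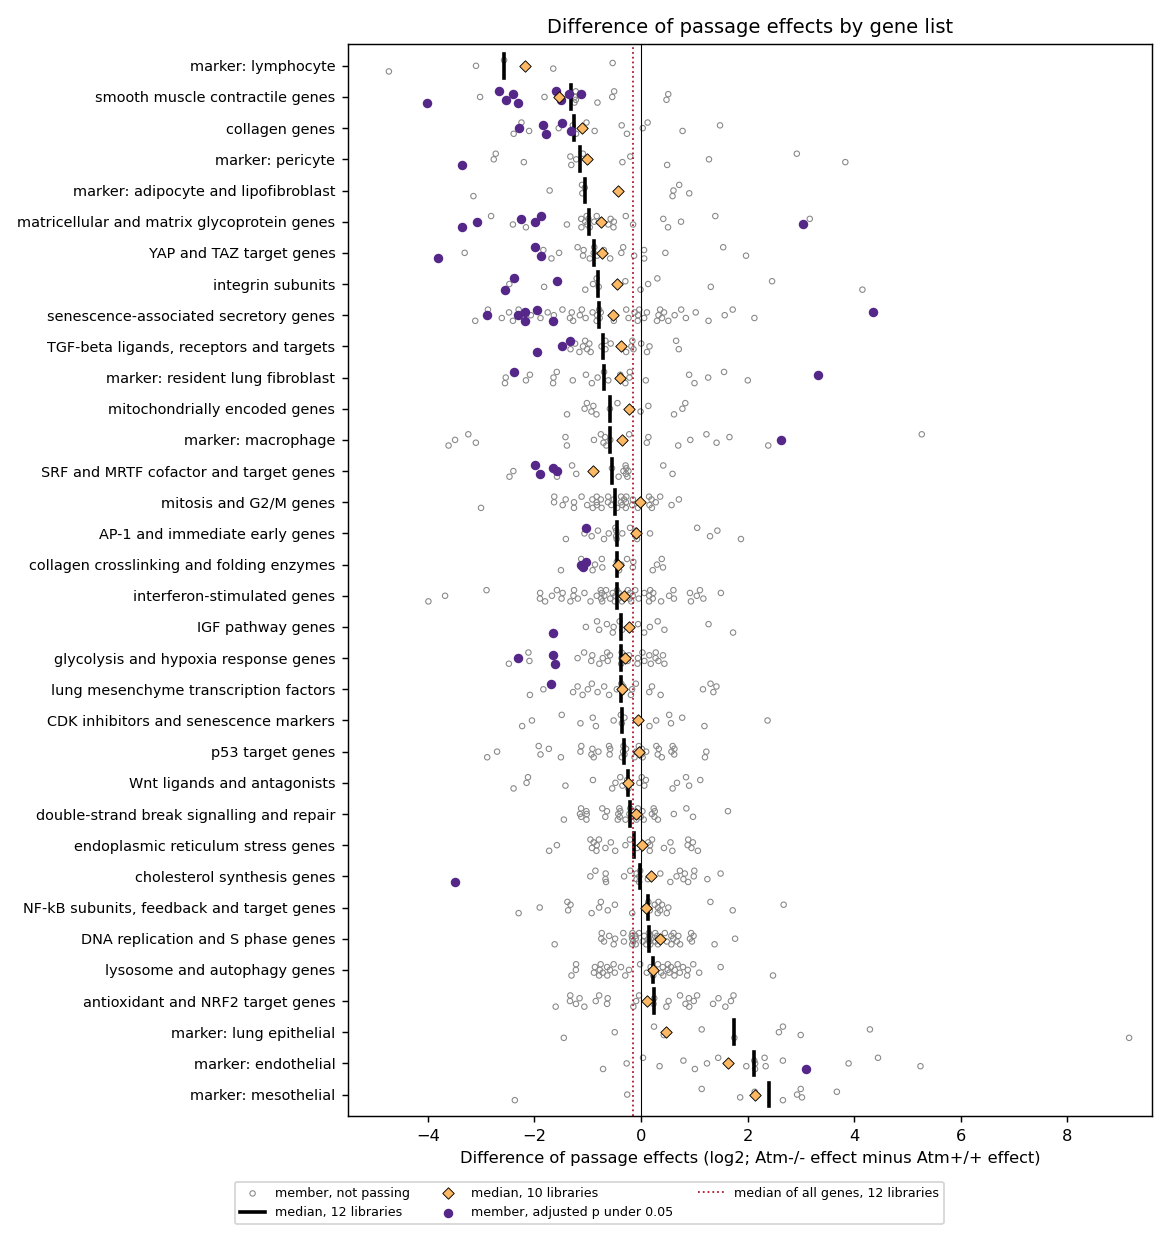
Difference of passage effects (log2) of each tested member of 34 gene lists, with filled points for members at an adjusted p under 0.05, bars for medians over 12 libraries, diamonds for medians over 10 libraries and a dotted line for the median of all genes, -0.14. The contractile list at -1.31 and the collagen list at -1.25 lie well to the left, and the endothelial marker list at 2.13 lies to the right.

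Of the genes with a higher difference, several are genes of endothelial or blood cells. Ramp2, a subunit of the adrenomedullin receptor (chr11:101246028-101259546, plus strand, GENCODE vM21 on GRCm38/mm10), was at 3.62, 2.14 and 3.86 CPM in Atm-/- cells at passage 8 and 22.1, 26.7 and 35.3 CPM at passage 2. Atm+/+ cells had 1.03, 0.507 and 0.519 CPM at passage 8 and 57.1, 58.1 and 41.7 CPM at passage 2. Both genotypes lost it with passage, and the Atm-/- libraries were above the Atm+/+ libraries at passage 8 and below them at passage 2, without overlap. The difference was 3.10 (SE 0.45, edgeR adjusted p = 0.0209). Icam2, an adhesion molecule of endothelium, was at 0.492, 1.21 and 1.84 CPM in Atm-/- cells at passage 8 and 28.4, 38.3 and 45.1 CPM at passage 2. The values in Atm+/+ cells were 0.114, 0.135 and 0.164 CPM at passage 8 and 63.4, 76.4 and 59.03 CPM at passage 2. Its difference was 3.78 (SE 0.58, edgeR adjusted p = 0.0273). The Atm+/+ libraries at passage 8 held 14 Icam2 reads in all, so the size is uncertain. Cd34, a sialomucin of endothelium and of resident lung fibroblasts, was at 11.5, 3.93 and 5.79 CPM in Atm-/- cells at passage 8 and 48.3, 65.2 and 78.3 CPM at passage 2. The Atm+/+ libraries held 1.03, 1.15 and 1.28 CPM at passage 8 and 106, 142 and 64.3 CPM at passage 2. Its difference was 3.33 (SE 0.56, edgeR adjusted p = 0.0372). Grap, an adaptor protein related to GRB2, had 3.96 (SE 0.65, edgeR adjusted p = 0.036), and 5.10 without Atm+/+ passage 8 replicate 3. Grap held 29 reads in all in Atm+/+ cells at passage 8, so its size is uncertain too.

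Most endothelial markers had a difference in the same direction as these genes, and Ramp2 is itself in the list. Of 19 tested, 1 (Ramp2) was higher and 0 lower, 17 were above 0 and the median was 2.13. In the 10 libraries 7 were higher. The summed level of the list was 186.5 to 202.8 CPM in Atm-/- cells at passage 8 and 705.3 to 1060 CPM at passage 2, against 182.7 to 205.4 CPM in Atm+/+ cells at passage 8 and 971.1 to 1602 CPM at passage 2. At passage 8 most of that sum was Eng and Flt1, which fibroblasts can also express. Atm-/- passage 8 replicate 3, which stands apart, differed from the other passage 8 libraries in both directions. Cdh5, Kdr, Tek, Emcn and Lyve1 were at 0 in it, while Cldn5 at 20.5 CPM, Egfl7 at 23.4 CPM and Tie1 at 4.30 CPM were above all 5 of the others. Pecam1, the CD31 adhesion molecule, was at 1.45, 3.74 and 4.92 CPM in Atm-/- cells at passage 8, against 0.829, 1.18 and 0.601 CPM in Atm+/+ cells at passage 8. Cdh5, the vascular cadherin, was at 1.82 and 3.23 CPM in the other 2 Atm-/- libraries, against 0.887, 1.35 and 1.18 CPM in Atm+/+ cells. In bulk RNA, fewer cells of a type and less RNA per cell cannot be told apart. The summed markers fell with passage in both genotypes. At passage 8, where Eng and Flt1 dominate it, the sum overlapped between the genotypes. That overlap therefore cannot be set against Ramp2, Icam2 and Cd34, which did not overlap there. The part of endothelial RNA in the differences of these genes was not tested.

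Other higher genes are known from myeloid cells. Syk, a kinase of immune receptors, was at 10.6, 3.77 and 9.13 CPM in Atm-/- cells at passage 8 and 8.45, 7.01 and 7.98 CPM at passage 2. For Atm+/+ cells they were 1.49, 2.199 and 1.803 CPM at passage 8 and 14.6, 14.3 and 19.6 CPM at passage 2. Atm-/- passages overlapped, Atm+/+ libraries were lower at passage 8 without overlap, and the difference was 3.14 (SE 0.50, edgeR adjusted p = 0.0335). Ccl8 was at 12.8, 23.5 and 39.8 CPM in Atm-/- cells at passage 8 and 14.8, 9.202 and 5.14 CPM at passage 2. Levels in Atm+/+ cells were 5.15, 4.296 and 2.43 CPM at passage 8 and 29.01, 11.5 and 52.9 CPM at passage 2. Its difference was 4.35 (SE 0.84, edgeR adjusted p = 0.0488), and Fcna, ficolin A, a lectin of macrophages, had 4.58 (SE 0.89, edgeR adjusted p = 0.0488). On the 10 libraries these were 3.25 (SE 0.71, edgeR adjusted p = 0.0315) and 3.83 (SE 0.79, edgeR adjusted p = 0.0239). Without Atm+/+ passage 2 replicate 3 alone they were 3.73 and 3.93, neither passing. Fcna held 26 reads in all in Atm+/+ cells at passage 8, so its size is uncertain. Mpeg1, a pore-forming protein of macrophages, was the 1 of 23 macrophage markers that passed, at 2.63 (SE 0.51, edgeR adjusted p = 0.0488), with 0 lower and a list median of -0.58. Summed macrophage markers were 44.9 to 62.4 CPM in Atm-/- cells at passage 8 and 1112 to 1783 CPM at passage 2, against 69.2 to 109.8 CPM in Atm+/+ cells at passage 8 and 2445 to 4261 CPM at passage 2. Ptprc and Adgre1 were at 0 in all 3 Atm-/- libraries at passage 8. The part of macrophage RNA in the differences of Syk, Ccl8, Fcna and Mpeg1 was not tested.

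**Figure D5:**
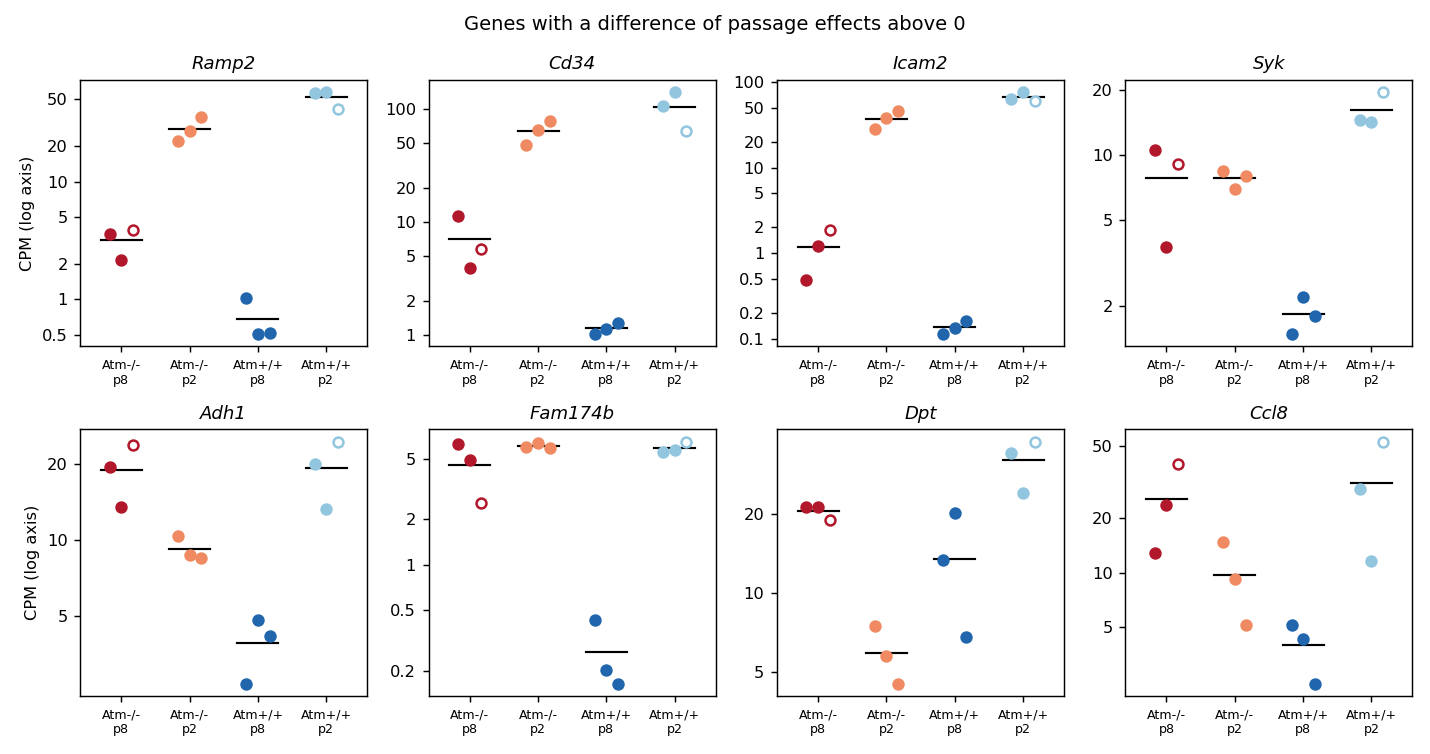
CPM on log axes in the 12 libraries for 8 genes with a difference of passage effects above 0, with Atm-/- groups left of Atm+/+ groups and passage 8 left of passage 2, points for libraries, lines for means of 3 and open points for the pair of libraries that stand apart. The Atm+/+ libraries at passage 8 are the lowest of all in each panel except Dpt and Ccl8, where they overlap with Atm-/- libraries at passage 2.

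Other higher genes are not markers of those cells. Adh1, which oxidises retinol and alcohol, was at 19.4, 13.4 and 23.6 CPM in Atm-/- cells at passage 8 and 10.3, 8.703 and 8.46 CPM at passage 2. Atm+/+ libraries were at 2.69, 4.803 and 4.15 CPM at passage 8 and 20.01, 13.2 and 24.5 CPM at passage 2. Atm-/- libraries were higher at passage 8 than at passage 2, Atm+/+ libraries were lower at passage 8, neither with overlap, and the difference was 3.34 (SE 0.44, edgeR adjusted p = 0.0177). The passage effect in Atm-/- cells, 1.03 (SE 0.30), did not pass. Fam174b, a membrane protein, was at 6.25, 4.92 and 2.55 CPM in Atm-/- cells at passage 8 and 6.02, 6.33 and 5.92 CPM at passage 2. In Atm+/+ cells the values were 0.429, 0.203 and 0.164 CPM at passage 8 and 5.57, 5.69 and 6.52 CPM at passage 2. Its difference was 4.06 (SE 0.60, edgeR adjusted p = 0.0209). Atm+/+ libraries at passage 8 were all below 0.5 CPM and the other 9 were all above 2 CPM. The former held 27 Fam174b reads in all, so the size is uncertain.

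Syngr1, a protein of synaptic vesicles, had 3.92 (SE 0.68, edgeR adjusted p = 0.0399), Galnt15, a glycosyltransferase that starts O-glycans, 3.25 (SE 0.61, edgeR adjusted p = 0.0476), and Clec3b, tetranectin, a plasminogen-binding lectin, 4.52 (SE 0.89, edgeR adjusted p = 0.0492). Over the 10 libraries Galnt15 had 2.52 (SE 0.39, edgeR adjusted p = 0.00816) and Clec3b 3.12 (SE 0.59, edgeR adjusted p = 0.0174). Without Atm+/+ passage 2 replicate 3 alone they had 2.65 and 3.81, neither passing, and Clec3b had 3.83 without Atm-/- passage 8 replicate 3. The largest values of the 120 belonged to the predicted gene Gm9780 at 8.21 (SE 1.54, edgeR adjusted p = 0.0476), Plac9b at 7.54 (SE 1.38, edgeR adjusted p = 0.0476) and Plac9a at 7.42 (SE 1.41, edgeR adjusted p = 0.0476). Plac9b was at 112, 30.4 and 413 CPM in Atm-/- cells at passage 8 and 15.9, 11.6 and 32.2 CPM at passage 2. Atm+/+ cells had 2.43, 3.75 and 2.46 CPM at passage 8 and 15.3, 30.2 and 128 CPM at passage 2. The libraries that stand apart held the highest level in their groups. In the 10 libraries its difference was 4.83 and that of Plac9a 4.86. Without Atm+/+ passage 2 replicate 3 alone they were 6.197 and 6.00, neither passing, and without Atm-/- passage 8 replicate 3 alone 6.17 and 6.27. Plac9a, Plac9b and Gm9780 are near-identical copies on chromosome 14 whose reads may be split between them, and their separate values are uncertain.

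Genes of the p53 pathway and the CDK inhibitors, the classes nearest to Atm, did not pass in 12 libraries. Over all genes tested 0.673% passed, so 0 calls in a short list say little. The counts here and below stand beside shares over all genes of 14.4% higher and 9.58% lower at an unadjusted p under 0.05. The shares were 7.6% and 4.33% in DESeq2 and 3.34% and 3.89% in edgeR on the 10 libraries. Of 37 p53 targets tested, 0 passed in either direction in edgeR, 2 were higher and 7 lower at an unadjusted p under 0.05, and DESeq2 called 1 higher and 6 lower. EdgeR on the 10 libraries called 1 higher and 5 lower. Of 17 CDK inhibitors and senescence markers 0 passed, 3 were higher and 3 lower at an unadjusted p under 0.05, DESeq2 called 3 higher and 1 lower, and edgeR called 2 higher in the 10 libraries. Cdkn2a, the locus of p16 and p19ARF, was at 237, 137 and 194 CPM in Atm-/- cells at passage 8 and 19.04, 10.7 and 10.9 CPM at passage 2. The values in Atm+/+ cells were 52.9, 37.3 and 52.03 CPM at passage 8 and 15.02, 9.19 and 28.8 CPM at passage 2. It rose in both genotypes, by 3.80 (SE 0.42) in Atm-/- cells and 1.43 (SE 0.39) in Atm+/+ cells, and the 3 Atm-/- libraries at passage 8 were above all others. The difference was 2.38 (SE 0.55, edgeR adjusted p = 0.0754) in 12 libraries and 1.81 (SE 0.45, edgeR adjusted p = 0.0445) in 10. Cdkn2b, p15, at 1.19 (SE 0.29, edgeR adjusted p = 0.0867) in 12 libraries and 1.02 (SE 0.27, edgeR adjusted p = 0.0464) in 10, had the same pattern. Cdkn1a, p21, the p53 target of the list, averaged 496.5 ± 51.8 CPM in Atm-/- cells at passage 8 and 407 ± 47.3 CPM at passage 2, against 386 ± 19.3 CPM in Atm+/+ cells at passage 8 and 246.5 ± 14.2 CPM at passage 2 (SD, n = 3 each), with a difference of -0.36 (SE 0.20, edgeR adjusted p = 0.29).

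Proliferation and repair genes had 0 calls in the 12 libraries as well, which again says little at the share over all genes. In edgeR 0 of 40 mitosis and G2/M genes passed, with 1 higher and 1 lower at an unadjusted p under 0.05 and 0 in DESeq2. Of 47 replication and S phase genes 0 passed, with 7 higher and 0 lower at an unadjusted p under 0.05. DESeq2 called 5 higher and 0 lower, and edgeR on the 10 libraries 2 higher and 0 lower. The other 2 lists of this kind also had 0 calls in the 10. Of 35 genes of double-strand break signalling and repair 0 passed, with 3 higher and 1 lower at an unadjusted p under 0.05 and 0 in DESeq2. Mki67, a marker of cycling cells, fell by 0.95 (SE 0.17) in Atm-/- cells and by 1.11 (SE 0.17) in Atm+/+ cells, and its difference was 0.16 (SE 0.24, edgeR adjusted p = 0.686).

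Interferon-stimulated genes gave 0 calls of 55 in edgeR on the 12 libraries, and 1 higher and 3 lower on the 10. At an unadjusted p under 0.05, 6 were higher and 9 lower, DESeq2 called 2 higher and 6 lower, and the median was -0.45. Isg15, a ubiquitin-like protein induced by interferon, was at 207, 359 and 271 CPM in Atm-/- cells at passage 8 and 277, 341.5 and 246 CPM at passage 2. The Atm+/+ libraries held 105, 67 and 103 CPM at passage 8 and 44.2, 39.05 and 34.6 CPM at passage 2. It was higher in every Atm-/- library than in any Atm+/+ library. In Atm-/- cells the passage effect was -0.05 (SE 0.23), in Atm+/+ cells it rose by 1.22 (SE 0.24), and the difference of -1.27 (SE 0.33, edgeR adjusted p = 0.101) did not pass.

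Of the remaining lists, 1 member each was lower and 0 higher among 21 immediate early genes (Fosl1, -1.02), 16 IGF pathway genes (Igfbp5, -1.66) and 25 lung mesenchyme transcription factors (Prrx1, -1.69). In edgeR on the 12 libraries 0 members passed among NF-kB, lysosome, antioxidant, endoplasmic reticulum stress, Wnt and mitochondrially encoded genes. At an unadjusted p under 0.05 these held 2 higher and 5 lower of 25, 10 higher and 2 lower of 41, 11 higher and 2 lower of 28, 7 higher and 6 lower of 26, 1 higher and 4 lower of 20, and 0 of 13, in that order. DESeq2 called 2 higher and 4 lower, 8 and 1, 7 and 0, 4 and 3, 0 and 3, and 0. In the 10 libraries edgeR called 3 higher and 2 lower, 2 and 0, 3 and 0, 1 and 2, 0 and 3, and 0. Of the marker lists not yet named, Postn was the 1 lower of 14 pericyte markers, and Itga8 the 1 lower and Cd34 the 1 higher of 25 markers of resident lung fibroblasts. In edgeR on the 12 libraries 0 passed among 11 lung epithelial, 10 mesothelial, 5 lymphocyte and 9 adipocyte and lipofibroblast markers. At an unadjusted p under 0.05 these held 3 higher and 0 lower, 2 and 0, 0 and 2, and 3 and 2, and DESeq2 called 2 and 0, 2 and 0, 0, and 3 and 1. In the 10 libraries edgeR called 1 and 0, 0, 0, and 3 and 1.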

How the data were processed

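Raw counts per gene were deposited by the authors for 48440 genes. The submitters' processing notes name featureCounts, the mm10 build and SAMtools 1.3.1, and give neither an aligner nor strandedness in the sources used here, so overlapping and antisense genes cannot be told apart. The authors also deposited TPM, which served in 2 alternatives. RNA was total RNA, per the labels' protocols.

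The 12 unirradiated libraries entered 1 fit in edgeR 4.0.16 (R 4.3.3), with filterByExpr by group, TMM normalisation, a mean per group and robust quasi-likelihood dispersion. The passage effects and their difference were contrasts of that fit, two-sided, with Benjamini-Hochberg adjustment over 17828 genes at a threshold of 0.05. CPM are counts scaled to the TMM-adjusted library size, log2 values come from the fit, and SE is the absolute log2 value over the square root of F. IDs were matched to GENCODE vM21 (17786 tested genes named, 42 not). The 34 gene lists came from general knowledge and entered no set test, and members and lists were chosen with earlier results of these data known. Named genes were Atm, the 15 largest differences each way passing in both the 12 and the 10 libraries averaging at least 2 log2 CPM, predicted and clone-based symbols excluded, and up to 4 members with the lowest p of each list with at least 3 passing. Other genes were named where a list count, a marker list or a promoter called for them, after their values were seen. A few genes that met this rule are not reported here.

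Alternatives were the 10 libraries, all 15, each library left out, the replicate block, DESeq2 1.42.0, edgeR with DESeq2 size factors, an unfiltered fit, a strict filter (1 CPM in 3 libraries, mean count 50) and limma 3.58.1 on log2(TPM + 1) and log2(TPM + 0.1) with 0.5 TPM in 3 libraries. DESeq2 with the block and limma-voom were added after seeing the data.

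Per the series design the strains of a genotype were sampled at both passages, so the same number within a genotype was read as the same strain, which the labels do not state. In replicate 3 of Atm-/-, Xist was at 163 CPM at passage 8 and 137 CPM at passage 2, and every other library had 0.0997 CPM or less. Deviations from the group mean correlated at -0.0453, 0.197 and 0.0323 between the passages of Atm-/- replicates 1 to 3, and at -0.00306, -0.185 and -0.213 for Atm+/+. Each genotype holds a library that stands apart and only 3 libraries a group, so these correlations cannot decide whether strain mattered. The fit without the block was kept as the main one. Replicate correlations of log2 CPM were 0.889 to 0.990, and the fits were tested on simulated data.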

Additional observations from a re-analysis of the deposited data

Results flagged for a closer look

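The 120 genes passed the test of the difference itself in the main fit, and in edgeR 0 of them passed with the replicate block. Genes described above that are outside the 120 did not pass that test in the 12 libraries. Within the 120, 12 also passed in each genotype's own passage effect with opposite signs, 6 with a negative and 6 with a positive difference, and 11 of them are listed for that reason. Of those that fell with passage in Atm-/- cells and rose in Atm+/+ cells, 5 were Myh11 (difference -4.02), Kalrn (-2.29), Col4a1 (-1.85), Col1a2 (-1.78) and Csrp1 (-1.13). The 6 that rose in Atm-/- cells and fell in Atm+/+ cells were Rapgef3 (2.37), Uchl1 (2.72), Gas7 (2.75), Dpt (3.05), Clec3b (4.52) and the predicted gene Gm9780 (8.21).

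Kalrn, Csrp1, Rapgef3, Uchl1, Gas7 and Gm9780 are outside the rule for named genes and are given because they met this condition. Rapgef3, a cAMP-activated exchange factor for Rap1, was at 42.7, 27.1 and 36.4 CPM in Atm-/- cells at passage 8 and 15.1, 15.5 and 16.5 CPM at passage 2. For Atm+/+ cells they were 10.6, 7.41 and 11.4 CPM at passage 8 and 22.9, 21.9 and 22.6 CPM at passage 2. Its difference was 2.37 (SE 0.29, edgeR adjusted p = 0.017). Uchl1, a ubiquitin hydrolase best known from neurons, was at 111, 56.9 and 109 CPM in Atm-/- cells at passage 8 and 51.5, 39.1 and 43.5 CPM at passage 2. Levels in Atm+/+ cells were 12.6, 12.04 and 8.17 CPM at passage 8 and 33.03, 32.9 and 38.8 CPM at passage 2. Its difference was 2.72 (SE 0.36, edgeR adjusted p = 0.0177). In both genes the Atm-/- libraries were higher at passage 8 and the Atm+/+ libraries lower, without overlap within either genotype. Gas7, a growth-arrest-specific adaptor of the actin cytoskeleton, was at 123, 47.3 and 41.7 CPM in Atm-/- cells at passage 8 and 28.4, 21.8 and 26.3 CPM at passage 2. Atm+/+ libraries were at 10.3, 8.49 and 8.94 CPM at passage 8 and 23.98, 24.5 and 18.6 CPM at passage 2. Its difference was 2.75 (SE 0.50, edgeR adjusted p = 0.0465). Kalrn, a guanine nucleotide exchange factor, had -2.29 (SE 0.39, edgeR adjusted p = 0.0399), and Csrp1, a LIM protein of smooth muscle, -1.13 (SE 0.20, edgeR adjusted p = 0.0424). With the replicate block the adjusted p of the 12 was 0.197 to 0.280.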

How the results depend on the processing

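The 49 named genes other than Atm kept their sign under every alternative, all of which reuse the libraries that chose them. Counts for the difference moved from 120 to 1315 in the 10 libraries, 804 in all 15, 2127 in DESeq2, 79 on log2(TPM + 1), 28 on log2(TPM + 0.1), 0 with the replicate block and 767 with the replicate block in DESeq2, and to between 1 and 2357 with 1 library left out. The passage effect in Atm-/- cells moved from 1705 genes to 4075 in the 10 libraries, 769 with the replicate block and 2735 in DESeq2, and to between 881 and 2322 with 1 library left out. In Atm+/+ cells it moved from 2845 to 6295 in the 10 libraries, 1244 with the block, 4586 in DESeq2, 1831 on log2(TPM + 0.1), and to between 1385 and 5758 with 1 library left out. The cause was not tested. The median difference over all genes, -0.14, was -0.27 with the block, -0.52 on log2(TPM + 1) and -0.77 on log2(TPM + 0.1), so low negative values on those scales lie near the centre of all genes.

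Only Atm changed sign. Its difference was -1.35 (SE 0.50, edgeR adjusted p = 0.111) in the 10 libraries and 0.0044 with DESeq2 size factors, and with 1 library left out in edgeR it ran from -0.83 (Atm+/+ passage 2 replicate 3 dropped) to 0.25 (Atm+/+ passage 2 replicate 2 dropped). Other positive values were 0.16, 0.15, 0.11, 0.20 and 0.10, when Atm+/+ passage 2 replicate 1, Atm-/- passage 2 replicate 3, Atm+/+ passage 8 replicate 3 and Atm-/- passage 8 replicates 1 and 2 were dropped, in this order. With 3 libraries a group, p-values of the main fit measure the spread between libraries within groups. That fit takes the libraries of a strain at both passages as independent.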

Other observations

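Aqp5, a water channel of alveolar type I cells and a member of the lung epithelial markers, was at 43.4, 7.41 and 5.71 CPM in Atm-/- cells at passage 8 and 0.972, 0.898 and 1.45 CPM at passage 2. In Atm+/+ cells the values were 1.69, 0.846 and 0.437 CPM at passage 8 and 0.787, 1.15 and 1.51 CPM at passage 2. It rose by 4.09 (SE 0.80) in Atm-/- cells, the passage effect in Atm+/+ cells was -0.20 (SE 0.75) and did not pass, and the difference was 4.30 (SE 1.07, edgeR adjusted p = 0.0894) in 12 libraries and 4.49 (SE 1.05, edgeR adjusted p = 0.0374) in 10. Replicate 1 of the Atm-/- libraries at passage 8 was far above the other 2. Krt19, a keratin of simple epithelia and mesothelium, was at 49.2, 16.7 and 39.7 CPM in Atm-/- cells at passage 8 and 6.89, 4.54 and 3.72 CPM at passage 2. Atm+/+ cells had 8.12, 9.17 and 6.91 CPM at passage 8 and 2.51, 3.15 and 1.94 CPM at passage 2. Its difference was 1.14 (SE 0.53, edgeR adjusted p = 0.218), which did not pass. Some mesothelial markers moved with it and others did not. Msln, mesothelin, was at 40.6, 6.64 and 18.9 CPM in Atm-/- cells at passage 8 and 0.486, 0.399 and 0.134 CPM at passage 2, against 2.06, 1.12 and 2.32 CPM in Atm+/+ cells at passage 8 and 0.363, 0.0801 and 0.708 CPM at passage 2. The uroplakins Upk1b and Upk3b were at 1.21 to 9.18 CPM and 2.28 to 5.59 CPM in Atm-/- cells at passage 8, with every other library at or under 0.629 CPM. Rspo1 was at 1.19, 4.025 and 6.58 CPM in Atm-/- cells at passage 8 and 22.9, 31.7 and 33.5 CPM at passage 2. Its Atm+/+ values were 21.45, 25.2 and 19.5 CPM at passage 8 and 140.3, 118.5 and 173 CPM at passage 2. Muc16 was at 0 in every library. Of 10 mesothelial markers tested, 4 rose and 1 fell with passage in Atm-/- cells, and 2 rose and 3 fell in Atm+/+ cells. The shares over all genes tested were 3.4% rising and 6.16% falling in Atm-/- cells, and 6.97% and 8.99% in Atm+/+ cells. For the difference 0 of the 10 markers passed in edgeR in 12 or 10 libraries, with a median of 2.40 and 2 members below 0. At an unadjusted p under 0.05, 2 were higher, and DESeq2 called 2 higher. The part of mesothelial RNA in the level of Krt19 was not tested. The epithelial surfactant gene Sftpc was at 0.0579 CPM or less in all 3 Atm-/- libraries at passage 8, and Epcam at 0.128 CPM or less. Aqp5 and Krt19 were chosen after their values were seen.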
